A study of Mus musculus with 6 samples.

Results

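The genes described here encode 10 surface proteins of leukocyte adhesion and of endothelium: Icam1, Icam2, Vcam1, Madcam1, Sele, Selp, Pecam1, Cdh5, Cldn5 and Emcn. Through most of them leukocytes hold on to vessels and tissue or endothelial cells hold on to one another. Emcn instead encodes a protein that keeps leukocytes from attaching. The 10 genes were chosen by symbol from the 29322 genes of the authors' deposited comparison. Each symbol had a single row, and 9 of the 10 carried an adjusted p-value. The values come from bulk RNA-seq of lung mesenchymal cells of adult mice, 3 libraries from Yeti+/- mice and 3 from wild-type mice, with tamoxifen injection recorded for both groups. In Yeti mice Ifng, which encodes interferon-gamma, carries a gain-of-function allele, and the labels give neither what tamoxifen acts on nor how many animals stand behind a library. The cells were sorted as negative for CD45 (leukocytes), CD31 (endothelium), Epcam (epithelium) and DAPI (dead cells), while the protocol for RNA names cultured cells, and the labels do not resolve this. Only 1 fold change per gene was used, with its standard error (SE), so values per library are not shown and it cannot be seen whether the groups overlap. Nothing in the labels says that the libraries of a group came from separate animals, so the p-values measure the spread between these libraries, which may be technical.

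A leukocyte leaves the blood in steps. Selectins on activated endothelium catch it by sugar ligands and let it roll, immunoglobulin-family ligands such as ICAM-1 and VCAM-1 then bind its activated integrins and arrest it, and it passes between endothelial cells whose contacts are built from VE-cadherin, claudin-5 and CD31. ICAM-1 and VCAM-1 are not restricted to endothelium: fibroblasts, mesothelial cells and some leukocytes carry them too, and inflammatory cytokines, interferon-gamma among them, raise ICAM-1 on many cell types.

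Both broadly expressed integrin ligands rose in Yeti, and 2 of the 4 endothelial contact and surface genes fell. Per the authors' deposited table, 4 of the 9 tested members passed an adjusted p of 0.05 (DESeq2 Wald test, Benjamini-Hochberg), Icam1 and Vcam1 higher and Cldn5 and Emcn lower in Yeti. Over all 20212 tested genes, 2.84% passed per the authors' deposited table, 1.85% higher and 0.994% lower. Before adjustment, 5 of the 9 members and 9.28% of all tested genes had a p under 0.05. The median log2 fold change was 0.18 over the 9 tested members and -0.001 over all tested genes. The calls of the members follow the authors' normal reference for the statistic: a t distribution with 4 degrees of freedom called 0 of all tested genes. The members had no common direction, with 5 above 0 and 4 below. Bulk values cannot tell fewer cells of a type from less RNA per cell.

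Transcripts of the genes for the 3 proteins of the negative sort were present in the table, and where they came from was not tested. Ptprc, which encodes CD45, had a mean of 266 normalized counts per kb of exon, Pecam1, which encodes CD31, 205, and Epcam 44.5, against 3657 for the fibroblast receptor gene Pdgfra. Normalized counts are the authors' counts after division by a size factor per library, and the lengths are those of all annotated exons of a gene in GENCODE M21.

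Per kb of exon, the 10 genes covered a wide span of levels, with the same pair on top in both groups. Icam1 and Vcam1 led with means of 1226 and 1033 normalized counts per kb, followed by Cldn5 (254), Pecam1 (205), Icam2 (124) and Cdh5 (108). Sele (14.5), Selp (8.22), Emcn (7.47) and Madcam1 (0.795) followed. These means cover both groups, and 2 pairs stood in the opposite order in each: Cldn5 lay above Pecam1 in wild-type (376 against 187) and below it in Yeti (131 against 223), and Emcn above Selp in wild-type (11.9 against 7.42) and below it in Yeti (3.02 against 9.02). No error can be given for an order between genes, since their values per library are not shown, so neighbours such as Icam1 and Vcam1 or Icam2 and Cdh5 cannot be ranked against each other. Levels of each group below were fitted from the deposited mean and fold change.

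**Figure D1:**
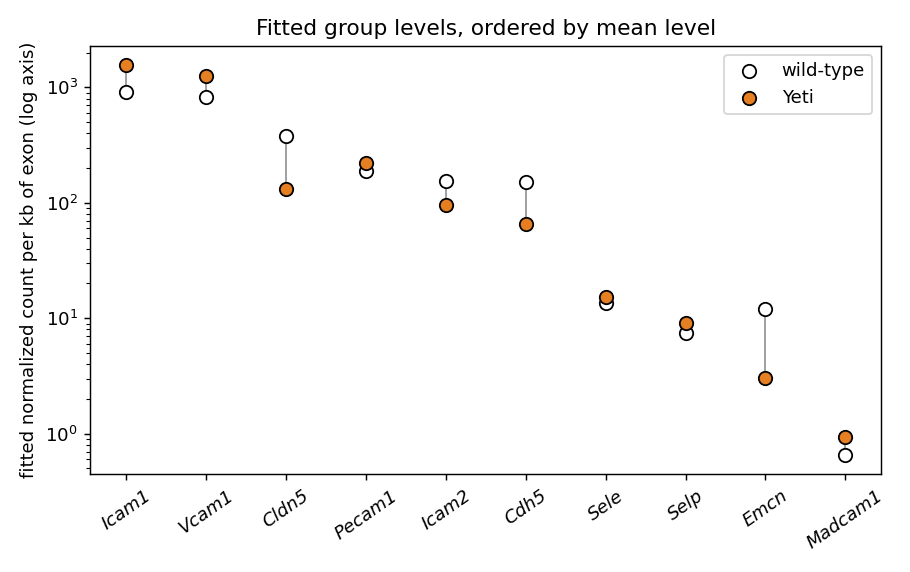
Fitted normalized count per kb of exon (log axis) of each of the 10 genes in wild-type (open) and Yeti (filled), ordered by the mean over both; no error bars are drawn because values per library are not shown. Icam1 and Vcam1 lie above the other 8 genes in both groups, and the open and filled points are farthest apart for Emcn, Cldn5 and Cdh5.

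Icam1 encodes ICAM-1, the ligand of the leukocyte integrins LFA-1 and Mac-1 (ENSMUSG00000037405, GRCm38 chromosome 9, 21015985 to 21028817, plus strand, protein-coding with 7 exon blocks). Its level was fitted at 3936 normalized counts for wild-type and 6757 for Yeti. That is a log2 fold change of 0.78 ± 0.15 (SE, 3 libraries per group) per the authors' deposited table, adjusted p = 2.45e-05, or 1.72-fold with a 95% interval from 1.40-fold to 2.10-fold. Icam1 was more abundant than 95.8% of the tested genes, and 50.6% of the genes within 1.5-fold of its mean had a smaller SE. The antisense gene Gm47079, which overlaps Icam1 and whose reads cannot be told apart without a strand setting, had a mean of 4.78 normalized counts per the authors' deposited table. The neighbouring family member Icam5, a neuronal adhesion molecule, had a mean of 22.8 and stood at 0.02 ± 0.57 on the log2 scale per the authors' deposited table.

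Vcam1 encodes VCAM-1, the ligand of integrin alpha4 beta1 (ENSMUSG00000027962, chromosome 3, 116109949 to 116129688, minus strand, 10 exon blocks). Its fitted level rose from 7265 normalized counts for wild-type to 11065 for Yeti, more counts than any other member. The log2 fold change was 0.61 ± 0.18 per the authors' deposited table, adjusted p = 0.0386, or 1.52-fold with a 95% interval from 1.19-fold to 1.96-fold. This call is near the threshold: the adjusted p was 0.0558 when every gene with a p-value entered the adjustment, and 0.0763 after the median change of the 1000 most abundant genes, 0.05 on the log2 scale, was subtracted. The difference between the log2 changes of Icam1 and Vcam1 was 0.17 ± 0.24, with a 95% interval from -0.29 to 0.64, so equal changes and a moderately larger one in Icam1 are both within it.

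Icam2 encodes a second ligand of LFA-1, found on resting endothelium, platelets and some leukocytes and known there for constant rather than cytokine-raised levels (ENSMUSG00000001029, chromosome 11, 106377656 to 106388075, minus strand). Its level was fitted at 292 normalized counts for wild-type and 181 for Yeti. Its log2 fold change was -0.69 ± 0.46 per the authors' deposited table, adjusted p = 0.811, and the 95% interval ran from 0.33-fold to 1.16-fold. Its log2 change lay 1.47 ± 0.48 below that of Icam1, with a 95% interval of the difference, Icam1 minus Icam2, from 0.52 to 2.42.

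The selectin genes were low and their changes were not resolved. Sele encodes E-selectin, which endothelium makes after stimulation by cytokines (ENSMUSG00000026582, chromosome 1, 164048234 to 164057677), and was fitted at 39.6 normalized counts for wild-type and 44.7 for Yeti. It stood at 0.18 ± 0.46 on the log2 scale per the authors' deposited table, adjusted p = 0.999, with a 95% interval from 0.60-fold to 2.12-fold. Selp encodes P-selectin, stored in endothelium and platelets (chromosome 1, 164115264 to 164150026), and was fitted at 32.7 for wild-type and 39.8 for Yeti. Its log2 fold change was 0.28 ± 0.62 per the authors' deposited table, adjusted p = 0.999, with a 95% interval from 0.53-fold to 2.81-fold. At these standard errors Sele would have had to change by 2.79-fold and Selp by 3.91-fold to reach the smallest statistic called in the table, so smaller changes were not detectable here.

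Madcam1 encodes the addressin that binds integrin alpha4 beta7, known mainly from gut vessels (ENSMUSG00000020310, chromosome 10, 79664559 to 79668537). Its fitted levels came to 2.82 normalized counts over the 3 wild-type libraries together and 4.03 over the 3 Yeti libraries. It carries no adjusted p, no fold is given, and no statement about its direction is possible at this depth.

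Of the endothelial contact and surface genes, Emcn had the lowest fold change. Emcn encodes endomucin, a sialomucin of capillary and venous endothelium that keeps leukocytes from attaching (ENSMUSG00000054690, chromosome 3, 137341067 to 137432185, plus strand, 12 exon blocks). Its level was fitted at 64.5 normalized counts for wild-type and 16.3 for Yeti. Its log2 fold change was -1.98 ± 0.38 per the authors' deposited table, adjusted p = 2.38e-05, leaving 25.3% of the wild-type level with a 95% interval from 0.15-fold to 0.42-fold.

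Cldn5, a gene of 1 exon for the tight-junction protein claudin-5 (ENSMUSG00000041378, chromosome 16, 18776847 to 18778262, plus strand), fell from a fitted 532 normalized counts for wild-type to 186 for Yeti. The log2 fold change was -1.52 ± 0.35 per the authors' deposited table, adjusted p = 0.00142, or 34.9% of the wild-type level with a 95% interval from 0.22-fold to 0.56-fold. Cdh5, which encodes VE-cadherin of the adherens junction (ENSMUSG00000031871, chromosome 8, 104101625 to 104144511), was fitted at 634 normalized counts for wild-type and 276 for Yeti. At -1.20 ± 0.39 it did not pass per the authors' deposited table, adjusted p = 0.0637, although its unadjusted 95% interval, from 0.26-fold to 0.74-fold, did not reach 1. It did pass, at an adjusted p of 0.0460, after the median change of the 1000 most abundant genes was subtracted.

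Pecam1 did not pass, and its change lay above those of the other 3 contact and surface genes. It encodes CD31, a contact protein of endothelium that platelets and many leukocytes also carry (ENSMUSG00000020717, chromosome 11, 106654217 to 106750628, minus strand, 17 exon blocks). Wild-type was fitted at 1167 and Yeti at 1391 normalized counts, and its log2 fold change was 0.25 ± 0.46 per the authors' deposited table, adjusted p = 0.999, with a 95% interval from 0.64-fold to 2.23-fold. The log2 change of Pecam1 lay above that of Emcn by 2.24 ± 0.60, above that of Cldn5 by 1.77 ± 0.58 and above that of Cdh5 by 1.45 ± 0.60. The difference from Cdh5 was near the threshold in the z test of pairs described below, with an adjusted p of 0.0479.

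**Figure D2:**
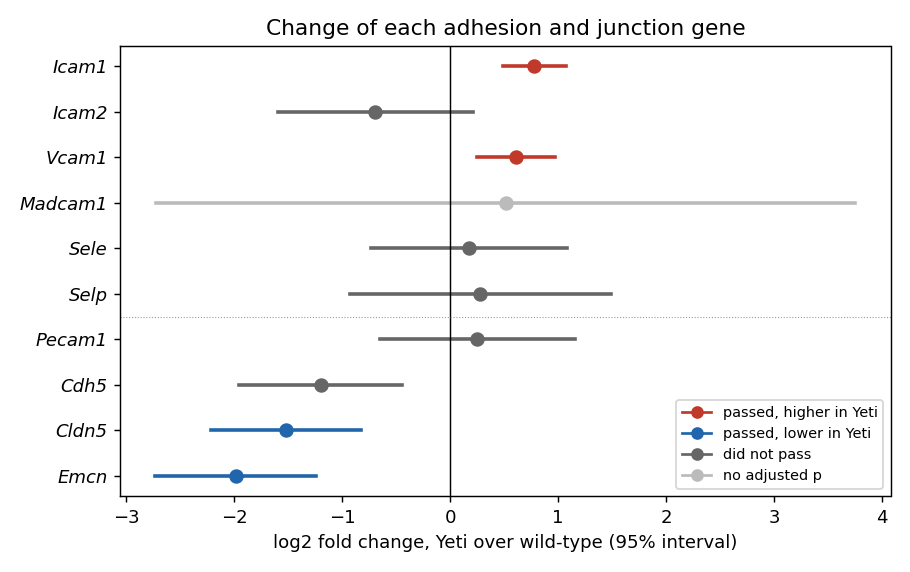
Log2 fold change, Yeti over wild-type, of each of the 10 genes with its 95% interval; the dotted line separates leukocyte adhesion molecules (above) from endothelial contact and surface genes (below). Icam1 and Vcam1 lie above 0 and Cldn5 and Emcn below, while the intervals of Icam2, Madcam1, Sele, Selp and Pecam1 span 0.

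Differences between members were compared in 45 pairs by a two-sided z test on both standard errors, Benjamini-Hochberg adjusted over the pairs, an approximation that takes genes of the same libraries as independent. Of these, 15 pairs passed. Between an adhesion molecule and an endothelial contact or surface gene, 10 of 24 pairs passed. Within the adhesion molecules, 2 of 15 pairs passed, Icam2 against Icam1 and Icam2 against Vcam1. Within the contact and surface genes, 3 of 6 passed, each of them Pecam1 against another gene. The counts of 24 and 15 include the pairs with Madcam1, whose SE of 1.65 let only very large differences pass. The shares that passed are therefore not comparable between the groups of pairs. No pair among Cdh5, Cldn5 and Emcn passed, the widest being 0.78 ± 0.54 between Cdh5 and Emcn, with a 95% interval from -0.28 to 1.85.

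The members also differed in SE among genes of like abundance, and no spread between libraries was observed directly. The SE of Pecam1 was larger than that of 96.1% of the 3060 genes within 1.5-fold of its mean, that of Selp than 90.6%, that of Cdh5 than 90.0%, and that of Icam2 than 88.8%. A coefficient of variation between libraries derived from the SE was 0.126 for Icam1, 0.156 for Vcam1, 0.257 for Emcn, 0.294 for Cldn5, 0.324 for Cdh5, 0.362 for Sele, 0.384 for Icam2, 0.391 for Pecam1 and 0.496 for Selp. Its median was 0.449 over 13 pan-leukocyte genes, 0.240 over 22 endothelial identity genes, 0.504 over 8 mesothelial genes and 0.207 over all tested genes. Emcn, Cldn5, Cdh5, Sele, Icam2 and Pecam1 lay between the endothelial and the leukocyte median, Selp between the leukocyte and the mesothelial one, and Icam1 and Vcam1 below the median of all genes. Medians of several other lists lay in the same range: 0.278 for pericyte and smooth muscle, 0.285 for capillary, 0.317 for epithelial and 0.448 for platelet genes. These medians carry no spread and are not matched for abundance, so no cell type can be read from the placing of the members. Which cells their transcripts came from was not tested.

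**Figure D3:**
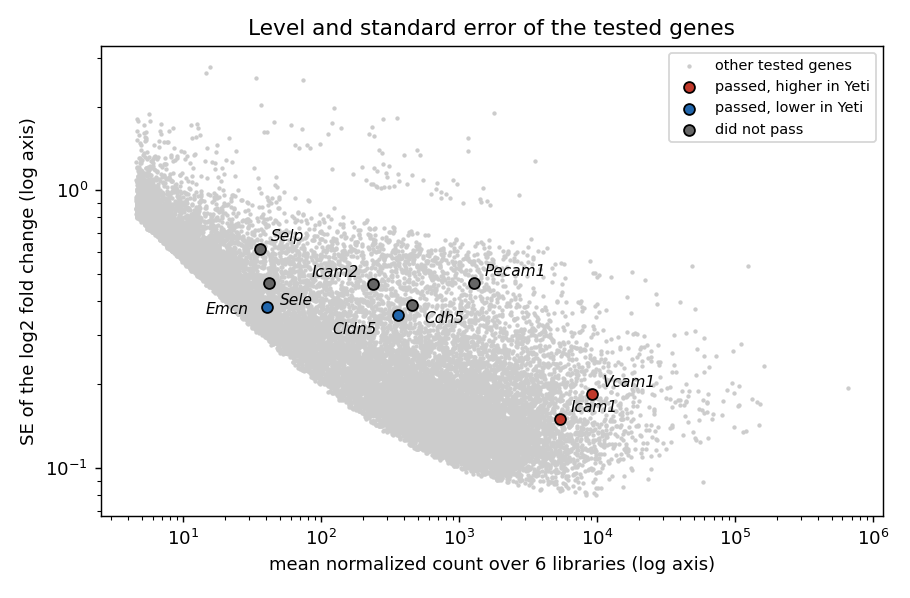
Standard error of the log2 fold change against the mean normalized count of every tested gene (grey, both axes log), with the 9 tested members marked. Pecam1 and Icam2 sit high among genes of like abundance and Icam1 and Emcn in the middle.

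Promoter sequence was looked at because Icam1 rose while Sele, another cytokine-induced gene, was not resolved, and because Cldn5 and Emcn fell. Of the 10 members, 6 matched the RefSeq promoter table (GRCm38.p6): Icam1, Sele, Selp, Madcam1, Cldn5 and Emcn. The 250 bases upstream of the start, all on the plus strand, are shown for Icam1 (chr9:21015690-21015939), Sele (chr1:164047984-164048233), Cldn5 (chr16:18776597-18776846) and Emcn (chr3:137340828-137341077), 5′ to 3′, with motif matches in capitals.
Icam1: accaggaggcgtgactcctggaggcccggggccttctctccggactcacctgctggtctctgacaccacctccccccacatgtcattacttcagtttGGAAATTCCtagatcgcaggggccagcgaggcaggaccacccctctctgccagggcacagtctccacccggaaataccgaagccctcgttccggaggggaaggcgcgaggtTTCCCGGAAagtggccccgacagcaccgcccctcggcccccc
Sele: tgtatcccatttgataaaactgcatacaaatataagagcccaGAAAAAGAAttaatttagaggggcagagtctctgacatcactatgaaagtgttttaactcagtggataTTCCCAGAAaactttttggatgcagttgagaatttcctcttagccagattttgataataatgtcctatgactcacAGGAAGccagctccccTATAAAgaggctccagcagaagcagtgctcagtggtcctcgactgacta
Cldn5: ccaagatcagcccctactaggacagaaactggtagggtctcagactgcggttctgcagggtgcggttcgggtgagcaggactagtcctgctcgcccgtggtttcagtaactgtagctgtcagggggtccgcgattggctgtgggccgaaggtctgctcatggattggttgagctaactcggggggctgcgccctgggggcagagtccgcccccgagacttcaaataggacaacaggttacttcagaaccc
Emcn: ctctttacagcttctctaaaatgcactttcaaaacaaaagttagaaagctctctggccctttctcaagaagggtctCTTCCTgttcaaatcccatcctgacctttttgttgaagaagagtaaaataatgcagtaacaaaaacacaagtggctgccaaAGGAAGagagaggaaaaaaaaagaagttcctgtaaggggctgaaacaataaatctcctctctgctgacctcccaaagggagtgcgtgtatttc

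Each window was searched on both strands for TTCNNNGAA (the GAS element of interferon-gamma-induced promoters), GGAAATTCC (the NF-kappa B site of the human ICAM1 promoter), GAAANNGAA (a core that interferon regulatory factors bind), AGGAAG (an ETS-family core) and TATAAA. Icam1 held TTCCCGGAA, a TTCNNNGAA match, at -42 to -34 relative to its start, and GGAAATTCC at -153 to -145, with no overlap. TTCNNNGAA occurred in 7.02% and GGAAATTCC in 0.286% of the 32851 promoters of the same length. Sele held TTCCCAGAA, the same GAS form, at -140 to -132, with AGGAAG at -65 to -60 and TATAAA at -49 to -44. AGGAAG occurred in 29.5% of all promoters and in 4 of the 6 members' (Emcn, with 2 matches, Madcam1, Sele and Selp), TATAAA in 12.4% and in Sele. Sele also held GAAANNGAA, found in 7.13% of promoters, at -208 to -200, and Cldn5 held none of the 5 motifs in this window. This set was settled after matches had been seen: a general NF-kappa B consensus was dropped and the interferon regulatory factor core was shortened by its last base. GGAAATTCC was taken from the human form of Icam1 itself, so its match in Icam1 is not independent information. Other forms of NF-kappa B site were not searched for, so windows without GGAAATTCC, that of Sele among them, may still hold one. A match is a run of letters, not a measured site.

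Genes of the interferon-gamma, TNF, interleukin-1 and NF-kappa B pathways that govern ICAM-1 and VCAM-1 were higher at 4 of 22 tested genes and lower at 0 per the authors' deposited table, with a median log2 fold change of 0.48. At a p under 0.05 before adjustment, 12 were higher and 0 lower, and 20 of the 22 stood above 0. Irf1, an interferon-induced transcription factor gene, rose by 1.98 ± 0.27 per the authors' deposited table. Nfkbiz, a nuclear NF-kappa B cofactor, rose by 1.28 ± 0.31 and Tnfaip3, which encodes the NF-kappa B brake A20, by 1.62 ± 0.50 (adjusted p = 0.0461) per the authors' deposited table. Tnfaip3 had an adjusted p of 0.0667 when every gene with a p-value entered the adjustment. The NF-kappa B subunit gene Relb (0.46 ± 0.20, adjusted p = 0.293) and the cytokine gene Tnf (1.19 ± 0.49, adjusted p = 0.262) missed the threshold per the authors' deposited table. Nfkbia, which encodes the NF-kappa B inhibitor I kappa B alpha, also missed it, with an adjusted p of 0.147 per the authors' deposited table.

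Leukocyte partners of these ligands did not pass one by one. Of 15 counter-receptor genes, 0 passed per the authors' deposited table, 4 being higher and 0 lower at a p under 0.05 before adjustment, with a median of 0.07. Itgal and Itgb2, the chains of LFA-1 that bind ICAM-1, stood at 1.20 ± 0.57 (adjusted p = 0.452) and 1.25 ± 0.57 (adjusted p = 0.383) per the authors' deposited table. The lowest p was that of Itgad, an integrin chain of tissue macrophages that binds VCAM-1 (2.02 ± 0.77, adjusted p = 0.188), and the most abundant gene Itgb1, the beta1 chain, stood at 0.07 ± 0.13 per the authors' deposited table. Itga4, the alpha chain that binds VCAM-1, stood at -0.78 ± 0.53, and Selplg, the main ligand of P-selectin, at -0.01 ± 0.46 per the authors' deposited table. The 13 pan-leukocyte genes had 0 passes per the authors' deposited table and 1 higher and 0 lower at a p under 0.05 before adjustment. The 1 was Fcer1g, an Fc receptor chain of myeloid cells, at 1.70 ± 0.56 (adjusted p = 0.0743), and the most abundant, the actin regulator gene Coro1a, stood at -0.03 ± 0.55 per the authors' deposited table. The summed fitted level of the pan-leukocyte list was 32066 normalized counts for wild-type and 35083 for Yeti. Leukocytes also carry ICAM-1, and their part in the value of Icam1 was not tested.

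Other adhesion molecules changed at 2 of 18 tested genes. Cx3cl1, a membrane-bound chemokine that leukocytes adhere to, rose by 1.38 ± 0.20 per the authors' deposited table, adjusted p = 3.26e-09, and Podxl, an endothelial and epithelial sialomucin related to CD34, fell by 1.09 ± 0.29, adjusted p = 0.00767. The median of the list was 0.003. Fibronectin (Fn1, a further ligand of alpha4 integrins) stood at 0.06 ± 0.09, and the activated-leukocyte adhesion molecule gene Alcam at -0.34 ± 0.24 per the authors' deposited table. Icam4 and Glycam1, also listed, were not analysed here.

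Among 22 endothelial identity genes, 5 were lower and 1 higher per the authors' deposited table, with a median log2 fold change of -0.48. At a p under 0.05 before adjustment, 8 were lower and 1 higher. The angiopoietin receptor family genes Tie1 (-1.42 ± 0.28) and Tek (-0.78 ± 0.22), the vascular guidance receptor gene Robo4 (-1.50 ± 0.30), Mmrn2 (-1.49 ± 0.24) and Egfl7 (-1.29 ± 0.31) fell per the authors' deposited table, and the endothelial transcription factor gene Erg rose by 0.72 ± 0.18. Kdr, the main VEGF receptor gene, stood at -0.52 ± 0.39 per the authors' deposited table. The summed fitted level of this list was 20405 normalized counts for wild-type and 18551 for Yeti, with Cav1, which fibroblasts express as well, its most abundant gene. Of 9 tested lymphatic genes, 6 fell and 0 rose per the authors' deposited table, from Reln (-3.43 ± 0.29) and Mmrn1 (-2.91 ± 0.26) through Prox1 (-2.22 ± 0.33) and Flt4 (-2.22 ± 0.25) to Stab2 (-1.61 ± 0.27) and Lyve1 (-1.58 ± 0.31). The lymphatic list came to a fitted sum of 11335 normalized counts for wild-type and 8432 for Yeti, most of it Nrp2 and Pdpn, which are not confined to lymphatics and did not pass, and none of its tested genes was at 0. Lymphatic endothelium expresses VE-cadherin and claudin-5 too, and the part of blood and lymphatic endothelial cells in the values of Cdh5, Cldn5 and Emcn was not tested.

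Of 6 arterial genes, Dll4, a Notch ligand, fell by 1.70 ± 0.32 per the authors' deposited table and 0 rose. Capillary genes (0 of 8) and venous genes (0 of 5) did not pass per the authors' deposited table, with 1 capillary gene, Ednrb, lower at a p under 0.05 before adjustment and 0 venous genes either way. The most abundant capillary gene Tbx2, which fibroblasts express as well, stood at 0.15 ± 0.30, and Ednrb, the endothelin receptor gene of aerocytes, at -0.66 ± 0.28 per the authors' deposited table. Among venous genes Ephb4, an ephrin receptor gene, had the lowest p (0.27 ± 0.16), and the most abundant, the transcription factor gene Nr2f2, stood at 0.15 ± 0.24 per the authors' deposited table. The venular receptor gene Ackr1, which like Sele and Selp marks venules, stood at 0.06 ± 0.49 and Vwf at -0.75 ± 0.45 per the authors' deposited table. Platelet genes, whose cells carry P-selectin, ICAM-2 and CD31, had a median of 1.01 over 10 tested, with 1 higher and 0 lower per the authors' deposited table and 5 higher at a p under 0.05 before adjustment. Ppbp, a platelet chemokine gene, rose by 2.52 ± 0.65 per the authors' deposited table. Of the 10 platelet genes 9 stood above 0, and the 1 below was Pf4, at -0.46 ± 0.54 per the authors' deposited table. The summed fitted level of the list was 1432 normalized counts for wild-type and 1694 for Yeti. The part of platelets in the values of Selp, Pecam1 and Icam2 was not tested.

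None of the partners of the junction proteins passed. Of 21 genes for catenins, tight-junction scaffolds, connexins and other cadherins, 0 passed per the authors' deposited table, 0 being higher and 1 lower at a p under 0.05 before adjustment, and the median was -0.07. The 1 was Cdh2, which encodes N-cadherin, at -0.81 ± 0.39 (adjusted p = 0.450), and the most abundant, Heg1, a membrane protein of endothelial junctions, stood at -0.01 ± 0.12 per the authors' deposited table. The catenin gene Ctnnb1 stood at 0.06 ± 0.12 and the scaffold gene Tjp1 at -0.23 ± 0.12 per the authors' deposited table. Of the 21 genes, 16 stood below 0 and 5 above. Rasip1 had the lowest log2 fold change, -0.85 ± 0.44 (adjusted p = 0.569), and Ptprb stood at -0.70 ± 0.40 (adjusted p = 0.678) per the authors' deposited table. Most of these genes are expressed in many cell types, and several are far more abundant here than Cdh5, such as Ctnnb1 with 1382 against 108 normalized counts per kb.

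Markers of the mesenchymal cells that can carry ICAM-1 and VCAM-1 did not pass, apart from Ly6a. Of 10 alveolar fibroblast genes 0 passed and of 8 mesothelial genes 0 passed per the authors' deposited table, with 0 at a p under 0.05 before adjustment in both. The median SE of the mesothelial list was 0.594, against 0.265 over all tested genes, so only large changes could have passed there. Of 12 pericyte and smooth muscle genes 0 passed, also with 0 at a p under 0.05 before adjustment, and of 9 adventitial fibroblast genes 1 rose, Ly6a, at 1.11 ± 0.20 per the authors' deposited table. The most abundant or lowest in p of these lists were Inmt (-0.26 ± 0.28) and Fgf10 (-0.14 ± 0.13) for alveolar fibroblasts, Upk3b (-0.47 ± 0.62) for mesothelium, and Acta2 (0.40 ± 0.40) and Rgs5 (-0.83 ± 0.48) for smooth muscle and pericytes per the authors' deposited table. The summed fitted level of the alveolar list was 302796 normalized counts for wild-type and 273258 for Yeti, and that of the mesothelial list 16621 and 15930.

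**Figure D4:**
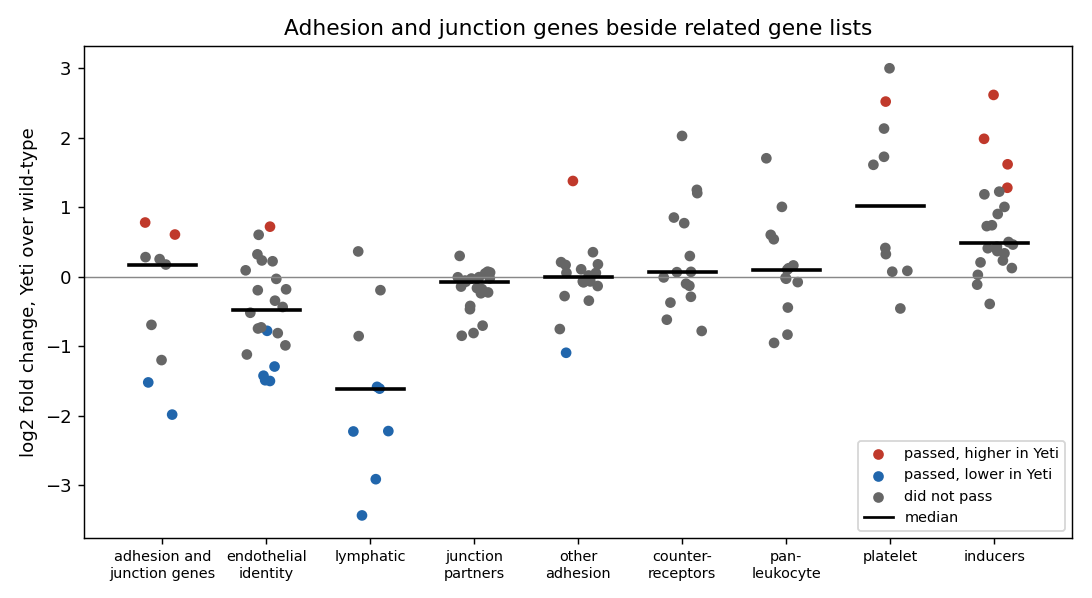
Log2 fold change, Yeti over wild-type, of each tested gene of the 10 described here and of 8 related lists; bars are medians and colours show the adjusted p of the authors' test at 0.05. Lymphatic genes lie lowest (median -1.61), inducers and platelet genes have medians above 0 (0.48 and 1.01), and the adhesion and junction genes spread from -1.98 to 0.78.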

How the data were processed

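RNA of 6 libraries of sorted lung mesenchyme, 3 Yeti and 3 wild-type by sample title, was sequenced by a service provider. FastQC, STAR and DESeq and the build GRCm38 (also named mm10) are given per the submitters' processing notes; the counting tool, its strand setting and the gene annotation were not given in the sources used here. Per the file headers, the authors' deposited table holds a mean expression signal (counts divided by size factors, averaged over libraries), log2 fold changes with standard errors, a Wald score, and p-values with adjusted p-values. No per-library values were used. The mean normalized counts added up to 26646632, which is the mean scaled depth of a library.

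Fitted group levels assume equal group sizes. 95% intervals are the fold change plus or minus the normal quantile times the SE, unadjusted. The derived coefficient of variation assumes a negative binomial spread common to both groups and equal size factors. It is a model value without an error, not a spread seen between libraries. The change needed to pass used the smallest absolute statistic called, 3.19. Adjustments were recomputed with statsmodels 0.14.6 and scipy 1.17.1. The effect of dependence between genes of the same libraries on the calls and on the pair test was not tested. Coordinates and lengths are from GENCODE M21 on GRCm38, promoters from RefSeq on GRCm38.p6.

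The members and the 19 related lists (228 of their 231 genes had a row) were chosen with earlier results of these data known. Named from each list were the genes that passed, otherwise the gene with the smallest p or the most abundant; further genes, such as Tnf, Relb, Nfkbia, Selplg, Itgal, Itgb2, Itga4, Ackr1, Vwf, Pf4, Kdr, Fn1, Alcam, Ctnnb1, Tjp1 and Foxf1, were chosen after their values were seen. The list counts include 1 passing inducer that is not reported here. A single contrast gives no pattern by which to name similar genes. Alternatives changed the genes adjusted over, a mean filter of 10, the reference distribution, the scaling, the threshold and the adjustment method.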

Additional observations from a re-analysis of the deposited data

How the results depend on the processing

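No paired analysis was possible because the table used gives no values per library, and leaving out a replicate could not be run for the same reason. Of 7 alternatives, 5 leave each fold change as it is and 2 subtract 1 small constant from every gene, so they test calls and not directions. Icam1, Cldn5 and Emcn passed under 6 of them, the exception being a t distribution with 4 degrees of freedom in place of the normal, which counts the residual degrees of freedom of a single gene alone. It gave 0 called members, 0 called genes in the related lists and 0 of all tested genes, and adjusted p-values of the 4 members called in the report between 0.824 and 0.999. Vcam1 passed with a mean filter of 10, with the median of all tested genes subtracted and at a threshold of 0.1. It did not pass with every gene with a p-value in the adjustment (0.0558), with the median of the 1000 most abundant genes subtracted (0.0763) or under Benjamini-Yekutieli adjustment (0.405). Cdh5 passed at a threshold of 0.1 and with the median of the 1000 most abundant genes subtracted (0.0460). The count of called members was 3 to 5 under these 6 alternatives. Benjamini-Yekutieli adjustment gave 317 called genes of all tested against 574. Without adjustment 18 member pairs differed against 15. By the change needed to pass, Madcam1 and Selp were the least resolved members, followed by Sele, Pecam1 and Icam2 at 2.79-fold, 2.78-fold and 2.76-fold.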

Other observations

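Genes that shape the sugar ligands of selectins did not pass. Of 11 selectin-ligand enzymes 0 passed per the authors' deposited table, 1 being higher and 0 lower at a p under 0.05 before adjustment and a median log2 fold change of 0.15. The one was Fut4, a fucosyltransferase that completes these ligands, at 1.03 ± 0.42 (adjusted p = 0.253), and B4galt1, the most abundant, stood at 0.15 ± 0.13 per the authors' deposited table. Proteases and inhibitors that govern shedding of adhesion molecules from the cell surface had 0 of 10 passes per the authors' deposited table, 3 being higher and 0 lower at a p under 0.05 before adjustment. Rhbdf2, which encodes a partner of the sheddase ADAM17, stood at 0.61 ± 0.20 (adjusted p = 0.0705), and Timp3, the most abundant, at -0.10 ± 0.18 per the authors' deposited table.

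Of 13 endothelial transcription factor genes, Erg, described above, was higher and 0 were lower per the authors' deposited table, with a median of 0.26, and Foxf1, expressed in lung mesenchyme as well as endothelium, stood at 0.55 ± 0.18 (adjusted p = 0.0857). Klf2, the most abundant, stood at 0.26 ± 0.24 per the authors' deposited table. Of 9 epithelial genes 0 passed per the authors' deposited table, 0 being higher and 2 lower at a p under 0.05 before adjustment, Epcam at -0.97 ± 0.37 and the most abundant, the club cell secretory gene Scgb1a1, at -0.97 ± 0.38.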
